A study of Caenorhabditis elegans with 4 samples.

Results

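Chromosome III of *Caenorhabditis elegans* carried 1126 of the 6494 regions in the combined list of C34F6.9 binding sites from second-stage (L2) larvae. These 1126 regions, called peaks, were chosen by their chromosome alone, with no use of their rank or score, although the chromosome was picked because its peak density is the highest of the autosomes. The combined density on chromosome III was 81.7 peaks per Mb, with an exact Poisson 95% interval from 77.0 to 86.6. Chromosome I came next at 80.4 per Mb, with an interval from 75.9 to 85.0, so the intervals of the 2 chromosomes overlap. The study mapped C34F6.9 by chromatin immunoprecipitation followed by sequencing (ChIP-seq), in which DNA crosslinked to a protein is collected with an antibody and sequenced. The study comprised 4 samples, 2 ChIP and 2 input (total genomic DNA kept from the same kind of extract). Every sample, ChIP and input alike, came from hermaphrodites of strain OP324 raised at 20 degrees Celsius. Their genotype is unc119(ed3) with the transgene wgIs324, which expresses C34F6.9 carrying TY1, EGFP and FLAG tags and also carries unc119, and the ChIP used antibodies against GFP. The fusion protein was thus followed from a transgene inserted by biolistic transformation in 1 strain. Whole larvae were used, so the sites are pooled over whichever cells held the fusion protein, and cell types cannot be told apart. A list of peaks was used for each ChIP replicate, beside the combined list. No list of the input samples is analysed here, so no background level is given. With peak lists alone, the sequencing depth is unknown. Nothing in the labels states that the replicates were separate cultures, so the spread between them may be technical.

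Worm chromosomes are holocentric, which means that the spindle attaches along their whole length instead of at 1 centromere. On the autosomes, a central part rich in genes that recombines little lies between arms that hold more repeats and recombine more. Chromosome III is also known for the homeobox genes of the worm's Hox cluster, among them lin-39 and mab-5, which pattern the body from head to tail. The gene for C34F6.9, which the labels call a transcription factor, is itself on chromosome X. The marker gene unc-119, a copy of which is part of the transgene, has its own locus on chromosome III in the RefSeq gene table. That table belongs to another genome build (WBcel235), so no peak was assigned to this locus or to any other gene. Whether the transgene's copies added peaks at the unc-119 locus was not tested. All positions are in WormBase build WS220, and peaks are named by position and by the number in their deposited name, where number 1 stands first.

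The highest-ranked site on chromosome III lay at chrIII:3867362-3867759. It was number 2 of the combined list, number 2 in ChIP replicate 1 and number 3 in ChIP replicate 2. The next was at chrIII:7854406-7854825, number 5 of the combined list, 12 in replicate 1 and 5 in replicate 2. The third, at chrIII:9765318-9765833, was number 7, with 6 in replicate 1 and 11 in replicate 2. The fourth, at chrIII:10758917-10759416, was number 8, with 11 in replicate 1 and 17 in replicate 2. The fifth, at chrIII:13643443-13643808, was number 11 and was 15 in each replicate. These 5 sites were spread over the chromosome: the first stood 28.1% of the way along it, the second 57.0%, the third 70.9%, the fourth 78.1% and the fifth 99.0%, close to the right end.

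The 15 sites that followed had combined numbers between 15 and 67. In the centre they included chrIII:6971821-6972218 (number 15, with 7 in replicate 1 and 36 in replicate 2) and chrIII:8446814-8447263 (number 28, with 25 in replicate 1 and 39 in replicate 2). Near the left edge of the centre were chrIII:4649246-4649638, chrIII:4899638-4900152 and chrIII:5018083-5018472, with numbers 56, 40 and 43 in this order. On the right, chrIII:12612294-12612790 was number 30 (30 in replicate 1 and 26 in replicate 2) and chrIII:12904922-12905267 was number 23 (20 in replicate 1 and 28 in replicate 2). On the left, chrIII:2785859-2786233 was number 53 (59 in replicate 1 and 65 in replicate 2) and chrIII:4193561-4193929 was number 50 (44 in replicate 1 and 81 in replicate 2). The remaining 6 were chrIII:3801257-3801810, chrIII:4475473-4475809, chrIII:5678950-5679273, chrIII:9456019-9456456, chrIII:8043720-8044078 and chrIII:1080528-1080915, numbers 26, 27, 34, 39, 58 and 67 in this order. With the chromosome cut into a left part, a centre and a right part of 33.3% of the length each, 6 of these 20 lay in the left part, 8 in the centre and 6 in the right part.

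All 20 stood near the start of both replicate lists, none later than number 71 in replicate 1 or number 203 in replicate 2. Their median number was 26 in replicate 1 and 33 in replicate 2. As the replicates are the source of the combined list, this is no independent support for sites chosen by their combined number. The 20 sites were between 324 and 554 bp wide, with a median of 395.5 bp. The nearest other combined peak was at a median distance of 4.07 kb, and at least 0.757 kb and at most 43.4 kb away. The order within this group rests on the peak number, because all 20 had the highest score of the list, 3.50, as did 875 of the 1126 peaks on chromosome III (77.7%) and 74.4% of those on the other autosomes.

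Some top sites differed in rank between the replicates. At chrIII:1080528-1080915 the number was 23 in replicate 1 and 203 in replicate 2, the largest ratio between the replicates among all chromosome III peaks found in both (8.83). At chrIII:3801257-3801810 the order was the opposite, with 67 in replicate 1 and 8 in replicate 2, a ratio of 8.38. At chrIII:10506781-10507106, combined number 267, the number was 117 in replicate 1 and 704 in replicate 2. Such differences were few: the numbers differed by more than 5 times in 10 peaks, of which 9 stood earlier in replicate 1 and 1 earlier in replicate 2. Combined numbers 5761 and 6382, both among the 9, overlap each other and take the same replicate peaks. The lists also differ in length, with 29725 peaks in replicate 1 and 23374 in replicate 2, and the split was not tested.

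Chromosome III was also well represented further down. It held 29 of the first 100 combined peaks and 120 of the first 500. The first 100 make up 1.54% of all combined peaks. They made up 2.58% of those on chromosome III (exact 95% interval 1.73 to 3.68%) and 1.29% of those on the other autosomes (0.97 to 1.68%). The first 500 make up 7.7% of all combined peaks. They made up 10.7% of those on chromosome III (exact 95% interval 8.92 to 12.6%) and 7.39% of those on the other 4 autosomes together (6.62 to 8.23%). Of the 120, 30 lay in the left part of the chromosome, 57 in the centre and 33 in the right part. All 120 overlapped a peak in both replicates, as did 99.4% of all combined peaks. No number was above 917 in replicate 1 or above 1028 in replicate 2. The 120 were chosen by combined number, and the replicates are the source of the combined list, so this support is not independent.

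By definition 50% of all combined peaks stand in the upper 50% of the list, numbers 1 to 3247. On chromosome III 637 of 1126 did (56.6%, exact 95% interval 53.6 to 59.5%), against 50.8% on the other autosomes (49.3 to 52.4%). The difference of 5.75 percentage points passed the test (Fisher's exact test, two-sided, p = 0.00061, Benjamini-Hochberg adjusted p = 0.0030 over 5 tests). Chromosome I was nearest, with 54.3% (51.4 to 57.1%), and its interval overlapped that of chromosome III. The call did not hold in every setting. With the upper 25% of the list the shares were 28.6% on chromosome III and 26.0% on the other autosomes (exact test, adjusted p = 0.18), and with the upper 10% they were 13.0% and 9.90% (adjusted p = 0.0093). In the first 6494 peaks of replicate 1 taken alone, that is without replicate 2, the upper 50% held 54.3% of the peaks on chromosome III and 51.4% of those on the other autosomes (exact test, adjusted p = 0.18). Neighbouring peaks are not independent, so this p-value and those that follow cover counting error only.

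Peaks were not spread evenly along chromosome III. The plot of density by position shows a low left arm, a broad high part and a lower right arm whose end rises again. In bins of 5% of the length, the left 25% of the chromosome stayed between 42.1 and 63.9 combined peaks per Mb. The next bin had 111.8 peaks per Mb (exact Poisson 95% interval 88.2 to 139.7), against 53.7 (37.8 to 74.0) in the bin before it. From there to 80% of the length no bin fell below 82.7 peaks per Mb. In the first bin beyond 80% the density was 56.6 (40.3 to 77.4), while the last bin before it had 100.2 (77.9 to 126.8). The bin at the right end held 81.3 (61.4 to 105.6).

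**Figure D1:**
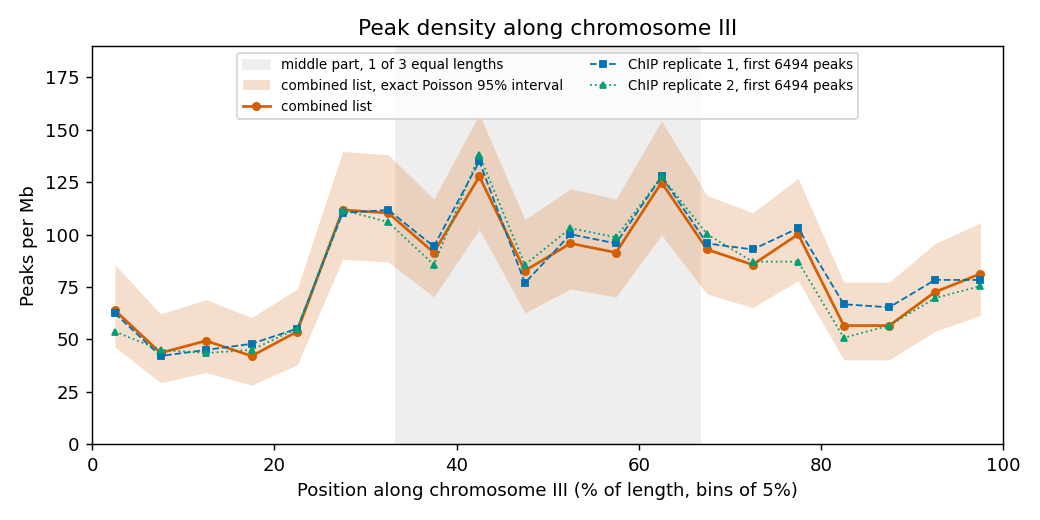
Peaks per Mb along chromosome III in bins of 5% of its length, for the combined list (with its exact Poisson 95% interval) and for the first 6494 peaks of each ChIP replicate. All 3 lists step up at 25% of the length and down at 80%, and the highest combined bin has 127.7 peaks per Mb.

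The part between 25% and 80% of the length, limits chosen after the profile had been seen, held 768 combined peaks, or 68.2% in 55% of the length. Its density was 101.3 peaks per Mb (94.3 to 108.8), against 50.5 (43.3 to 58.6) to its left and 66.8 (57.5 to 77.1) to its right. The replicates gave a similar profile when each list was taken alone to its first 6494 peaks. Replicate 1 had 104.0 peaks per Mb inside, 50.5 to the left and 72.2 to the right. Replicate 2 had 102.8 inside, 48.5 to the left and 63.1 to the right. As these limits come from the data, no test was made.

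Of the 3 equal parts, the centre (chrIII:4592854-9185708) held 468 peaks, the left part 308 and the right part 350. The centre thus held 41.6% of the peaks on chromosome III (exact 95% interval 38.7 to 44.5%), against 46.6% on the other 4 autosomes (45.1 to 48.1%), in 33.3% of the length in each case. The difference of -5.03 percentage points passed the test (Fisher's exact test, two-sided, p = 0.0027, adjusted p = 0.0067). Chromosome III had the lowest share of the 5 autosomes. Chromosome IV, with 44.2% (41.1 to 47.3%), was nearest and its interval overlapped that of chromosome III. The centre of chromosome III was still dense, with 101.9 peaks per Mb against 112.0 on chromosome I and 95.9 on chromosome II. Its outer parts had 67.1 peaks per Mb on the left and 76.2 on the right. The other autosomes had 30.5 to 66.8 peaks per Mb in their outer parts, given as a description because the chromosome was picked for its density. The call ended when the centre was taken as the middle 50% of the length, with 62.1% of the peaks on chromosome III and 65.8% on the other autosomes (exact test, adjusted p = 0.0504, above the threshold of 0.05). It also ended in the upper 50% of the list, where the shares were 42.4% and 45.7% (exact test, adjusted p = 0.24).

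**Figure D2:**
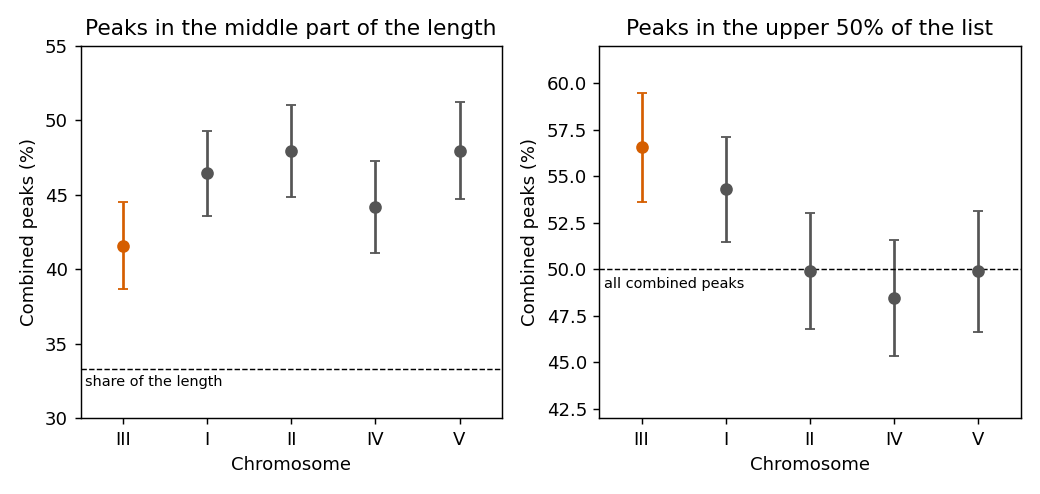
Share of each autosome's combined peaks that lie in the middle 33.3% of the length (left panel) and in the upper 50% of the list (right panel), with exact 95% intervals. Both vertical axes start above 0. Chromosome III has the lowest share in the left panel, 41.6%, and the highest in the right panel, 56.6%.

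The left and right parts did not differ beyond counting error, with 308 and 350 peaks (46.8% on the left, exact binomial test against equal numbers, two-sided, p = 0.11, adjusted p = 0.18). With parts of 25% at either end they did: 40.7% of their peaks were on the left (exact binomial test, adjusted p = 0.00077). They also did in the first 6494 peaks of replicate 1 alone, without replicate 2, where 44.9% were on the left (exact binomial test, adjusted p = 0.013). For rank and position, the share in the centre was compared between the upper and the lower 50% of the combined list, and no difference was detectable. Of the 637 peaks in the upper 50% of the list 270 lay in the centre (42.4%), against 198 of the 489 lower-ranked ones (40.5%, Fisher's exact test, two-sided, p = 0.54, adjusted p = 0.54).

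The full replicate lists, which go on to weaker peaks, are described by rank. In the first 20% of the chromosome III peaks of replicate 1 by rank, 40.9% were in the centre (exact 95% interval 37.8 to 44.1%), and in the next to last 20% of them 24.9% were (22.2 to 27.8%), below the 33.3% of the length. In the last 20% the share was 27.7% (24.9 to 30.7%). In replicate 2 the share did not fall at every step: it was 42.5% in the first 20% (38.9 to 46.2%), then 43.9%, 36.3% and 39.5%, and 34.4% in the last 20% (30.9 to 37.98%), an interval that includes the share of the length. The share of peaks that overlapped one in the other replicate also changed with rank. It was 98.6% in the first 20% and 31.7% in the last 20% of replicate 1, and 98.5% in the first and 52.1% in the last 20% of replicate 2. Its part in the centre shares was not tested. Over the full lists the centre held 33.4% of the 4800 chromosome III peaks in replicate 1 and 39.3% of the 3622 in replicate 2.

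Neighbouring combined peaks on chromosome III were a median of 6.15 kb apart, midpoint to midpoint (exact 95% interval of the median 5.61 to 6.88 kb). Of the spacings, 25% were under 1.98 kb and 25% over 16.3 kb, and the longest was 134.1 kb. Chromosome I had a median of 6.08 kb and chromosome V, the sparsest, 8.07 kb. The short spacings hardly varied between chromosomes: 25.3% of those on chromosome III were within 2 kb, against 23.6% to 24.3% on the other autosomes. The long ones varied more: 38 of 1125 exceeded 50 kb on chromosome III, against 49 of 1209 on chromosome I and 103 of 933 on chromosome V. Within chromosome III the median spacing was 5.33 kb in the centre, 7.76 kb to its left and 7.11 kb to its right. These are descriptions and were not tested.

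**Figure D3:**
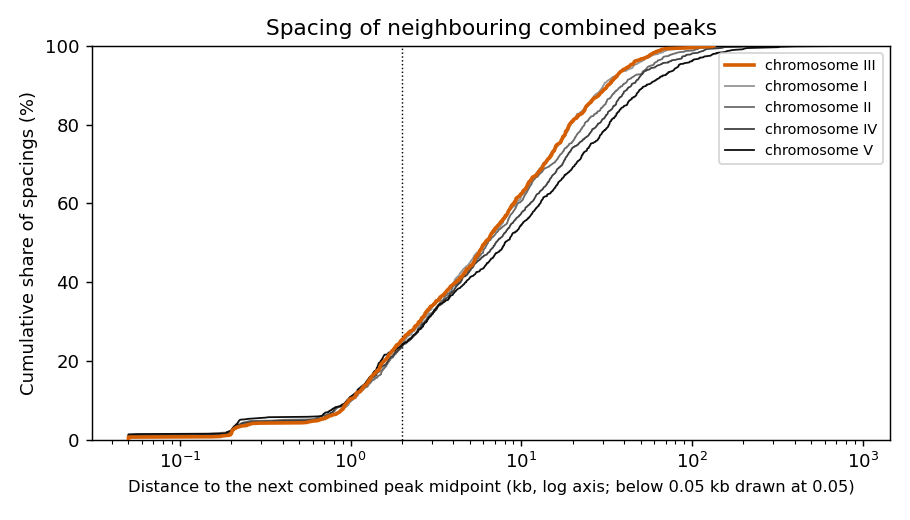
Cumulative share of distances between neighbouring combined peak midpoints on chromosome III and on the other autosomes, on a log axis in kb, with a dotted line at 2 kb. The curves run together below 2 kb, where 25.3% of the chromosome III spacings lie, and separate above it, with chromosome V reaching the longest distances.

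Part of the closest spacing came from peaks that overlap each other. On chromosome III 91 of the 1126 peaks (8.08%) overlapped another combined peak, against 8.43% to 10.5% on the other autosomes. Merging them left 1080 separate regions on chromosome III, 44 made of 2 peaks and 1 of 3. In 5 cases 2 peaks had exactly the same start and end under different numbers. These were chrIII:349677-350164 (numbers 463 and 1955), chrIII:4281918-4282573 (151 and 3004), chrIII:5013867-5014309 (126 and 6402), chrIII:5621146-5621560 (430 and 3232) and chrIII:9618985-9619515 (166 and 2790). The number of distinct sites is therefore nearer 1080 than 1126, and the regions covered 418.1 kb, or 3.03% of the chromosome. The other autosomes had between 5 and 12 such identical pairs each.

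The share of sites in runs depended on the distance allowed. A run was counted where 3 or more peaks followed each other with neighbouring midpoints within 2 kb. By this count 17.8% of all combined peaks were in a run. On chromosome III 209 of 1126 were (18.6%, exact 95% interval 16.3 to 20.96%), in 58 runs, and the other autosomes had 15.996% to 18.7%. After overlapping peaks were merged, the share on chromosome III was 14.3%. With a limit of 1 kb and no merging it was 3.197%, against 2.89% to 4.60% on the other autosomes. With 5 kb it was 40.9%, against 37.2% to 42.2% on the other autosomes. There were 37 runs of 3 peaks, 14 of 4, 4 of 5, 2 of 6 and 1 of 10, while 649 peaks (57.6%) had no neighbour within 2 kb. In the upper 50% of the list taken alone the share in runs was 4.71%, and of the 58 runs in the whole list 49 held peaks of both the upper and the lower 50%.

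The longest run, at chrIII:7718347-7729829, held 10 peaks in 11.5 kb, in the centre of the chromosome. Only 1 other chromosome of the 6, X, had a longer run by this rule, with 11 peaks. The highest-ranked peak of the run was at chrIII:7720846-7721128, number 871 in the combined list, 1096 in replicate 1 and 782 in replicate 2. The next was at chrIII:7729603-7729829, at the right end of the run, number 1299, with 1631 in replicate 1 and 1001 in replicate 2. The third, at chrIII:7718347-7718478, at the left end, was number 1643, with 2174 in replicate 1 and 1096 in replicate 2. The lowest-ranked was chrIII:7722228-7722683, number 5192, with 4844 in replicate 1 and 8595 in replicate 2. None of the 10 was among the first 500. The map of this run shows that both replicates placed 15 peaks there, of which 10 in replicate 1 and 9 in replicate 2 were within their first 6494.

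**Figure D4:**
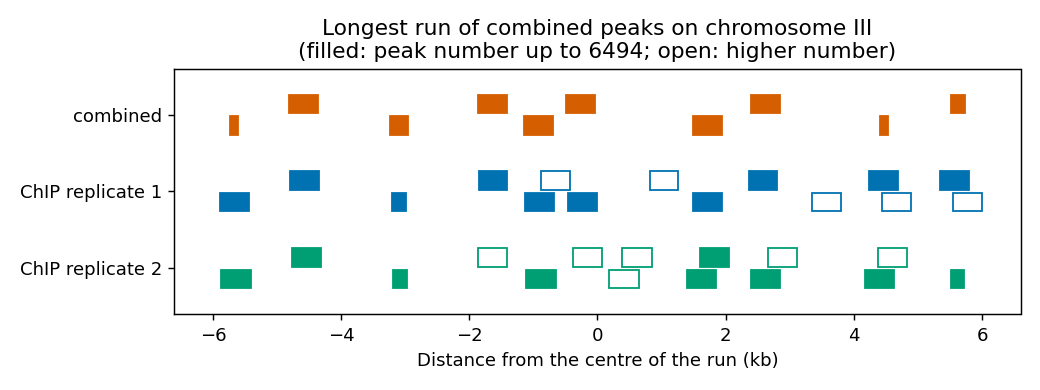
Peaks of the 3 lists over the longest run of combined sites on chromosome III, as distance in kb from the centre of the run. Filled boxes have peak numbers up to 6494 and open boxes have higher ones. The 10 combined peaks span 11.5 kb, and both replicates have 15 peaks in the same stretch.

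Of the other runs, 6 peaks lay at chrIII:6135102-6141873, in 6.77 kb, with a best number of 1391, and 6 at chrIII:10815845-10821665, in 5.82 kb, with a best number of 1743. Of the runs of 5 peaks, the 2 with the best-ranked members were at chrIII:1921125-1926864 (best number 219) and chrIII:5498906-5504516 (best number 429). Each of those 2 held 1 site of the first 500. In these runs too the lower-ranked members went far down the list, to numbers between 4949 and 6300. On a larger scale, the densest windows of 100 kb had 18 combined peaks, at chrIII:5600001-5700000, chrIII:8700001-8800000 and chrIII:8800001-8900000. The last of these windows also held 4 of the first 500. The mean was 8.17 per window, the variance was 2.26 times the mean, and that ratio was 2.27 to 3.44 on the other autosomes.

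Runs held sites from the first 500, from the rest of the upper 50% and from the lower 50% of the list. Among the first 500 combined peaks, 21 of the 120 on chromosome III were in a run (17.5%, exact 95% interval 11.2 to 25.5%). Among those from 501 to 3247 the share was 15.9% (12.8 to 19.3%), and in the lower 50% of the list 21.7% (18.1 to 25.6%). The intervals overlap and the differences were not tested. By position the shares in runs were 18.8% in the left part, 20.5% in the centre and 15.7% in the right part, again with overlapping intervals.

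The longest stretches without a combined peak lay mostly in the left part of the chromosome. Chromosome III had 6 of more than 100 kb, against 5 on chromosome I, 12 on chromosome II, 20 on chromosome IV and 37 on chromosome V. Their number and length depend on the density, for which the chromosome was picked, and were not tested. The longest, chrIII:1284917-1418718, measured 133.8 kb, against 201.0 kb on chromosome I, 287.9 kb on chromosome II, 268.1 kb on chromosome IV and 891.9 kb on chromosome V. The second was chrIII:2172502-2304799 with 132.3 kb and the third chrIII:6731701-6857437 with 125.7 kb, the only 1 of the 10 longest in the centre. Next came chrIII:235558-343725 (108.2 kb), chrIII:12714118-12818211 (104.1 kb) and chrIII:2597444-2698840 (101.4 kb). The other 4 were chrIII:675888-764487 (88.6 kb), chrIII:11565946-11641203 (75.3 kb), chrIII:1950533-2019578 (69.0 kb) and chrIII:2966832-3034493 (67.7 kb). By part, 7 of the 10 were on the left, 1 in the centre and 2 on the right.

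The replicate lists, which reach to much weaker peaks, were not empty in these 10 stretches: replicate 1 had 166 peaks there and replicate 2 had 102. As the stretches were chosen for holding no combined peak, these counts are not set against an expected number. In the longest stretch replicate 1 had 19 peaks, the first of them number 10295, and replicate 2 had 8, the first of them number 10674. In the third, at chrIII:6731701-6857437, replicate 2 had a peak as early as number 4015, whereas the first in replicate 1 was number 8061. In chrIII:11565946-11641203 the order was the opposite, with number 4889 in replicate 1 and 7323 in replicate 2. In all, 38 stretches without a combined peak were longer than 50 kb. The first combined peak began at 25557 and the last ended at 13771358. The length used, 13778562 bp, is itself the largest peak end of the 3 lists, so the distance to the true right end is not known.

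Support from both replicates was nearly complete. Of all combined peaks 99.4% shared at least 1 bp with a peak in each replicate. On chromosome III 1118 of 1126 did (99.3%, exact 95% interval 98.6 to 99.7%), against 99.4% on the other autosomes (99.2 to 99.7%, Fisher's exact test, two-sided, p = 0.51, adjusted p = 0.54). As the replicates are the source of the combined list, this support is not independent. When both midpoints had to lie within 200 bp the share was 98.8%, both on chromosome III and over all combined peaks. With a reciprocal overlap of 50% it was 81.9% on chromosome III and 83.7% over all combined peaks. Support within the first 6494 peaks of both replicates was found for 921 peaks on chromosome III (81.8%), against 79.9% on the other autosomes.

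The 8 peaks that lacked support fell into 2 kinds. Replicate 2 lacked 5 of them: chrIII:3983994-3984449, chrIII:4720907-4721113, chrIII:4931882-4932337, chrIII:5836695-5837150 and chrIII:11915516-11915971. In replicate 1 these were numbers 3847, 2470, 4682, 3101 and 4926. Replicate 1 lacked 3, chrIII:4850050-4850505, chrIII:6019801-6019992 and chrIII:7911473-7911928, which were numbers 3211, 1556 and 2303 in replicate 2. The highest-ranked of the 8 was chrIII:6019801-6019992, combined number 1532, where the nearest peak of replicate 1 was 12988 bp away. At chrIII:4720907-4721113 the nearest peak of replicate 2 was 736 bp away and was number 246 there. Of the 8, 6 lay in the centre, which held 41.6% of all chromosome III peaks. With so few peaks, this difference was not tested.

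The replicates' ranks were closer to each other in the upper part of the combined list than in the lower part. For each combined peak, the lowest peak number that overlapped it was taken in each replicate. Over 1118 peaks the Spearman rho between these numbers was 0.83. Within the upper 50% of the combined list it was 0.79 over 634 peaks, and within the lower 50% it was 0.059 over 484 peaks. These correlations run across sites that share the same pair of libraries, and each set spans a narrower range of ranks, so they are given as descriptions. The larger number was less than 2 times the smaller in 915 peaks (81.8%), with a median ratio of 1.40.

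**Figure D5:**
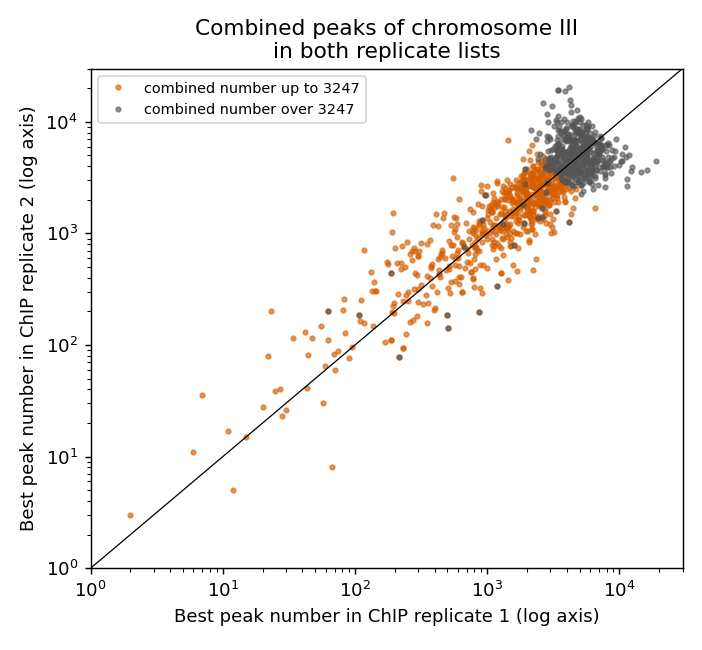
Best peak number in each ChIP replicate for the 1118 chromosome III peaks found in both, on log axes, with the line of equal numbers. Peaks of the upper 50% of the combined list (numbers up to 3247) follow the line, and those of the lower 50% form a cloud at high numbers in both replicates, apart from a few that lie among the early ones.

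A few lower-ranked combined peaks met early replicate peaks. Of the 489 chromosome III peaks in the lower 50% of the list, 8 overlapped a peak within the first 1000 of both replicates. All 8 also overlapped another combined peak, so the same replicate peak could stand behind both. The peak at chrIII:5013867-5014309, which is listed as numbers 126 and 6402, is the widest apart of the identical pairs.

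In the opposite direction, the early peaks of each replicate were looked up in the combined list. On chromosome III replicate 1 had 1161 peaks and replicate 2 had 1120 within their first 6494, and 90.9% and 91.3% of them overlapped a combined peak. Those early peaks formed 1014 overlapping pairs between the replicates, and in 5 pairs neither member met a combined peak. This count depends on the overlap asked for: it was 117 with a reciprocal overlap of 50% at both steps, and 2 within the first 3247 peaks of each replicate. The 5 pairs that share at least 1 bp are described here. The highest-ranked was at chrIII:5108846-5109048 in replicate 1, number 530, and at chrIII:5108845-5109016 in replicate 2, number 636. The next was at chrIII:9614110-9614559, number 2402 in replicate 1 and, at chrIII:9614093-9614552, number 2266 in replicate 2. The third, at chrIII:7641916-7642365 in replicate 1, was number 3465 there and 3228 in replicate 2. The remaining pairs began at 5710872 and 5181650 in replicate 1, with numbers 5118 and 6454. The distance from the replicate 1 peak to the nearest combined peak was 5896 bp for the first pair and between 729 and 8599 bp for all 5.

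Peak width varied with rank on chromosome III. A single width of 456 bp was shared by 698 peaks (61.99%), while 408 were narrower and 20 wider, with a range of 114 to 808 bp. On the other autosomes 65.8% had that width. The first 10% of the chromosome III peaks by rank had a median width of 338 bp, the next 10% had 256 bp and those after them 217 bp, and from there on the median was 456 bp. The authors' rule for widths is not given in the sources used here, so a width is a property of the list and not a measured size of the bound region.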

How the data were processed

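The samples were placed in 2 groups, ChIP and input, by their titles, with 2 replicates each. For each ChIP replicate the authors deposited 1 peak list, and they added 1 combined list. Per the file headers the format is GFF version 3 and the build is WormBase WS220, and their source column names the SPP peak caller and IDR, which ranks peaks by reproducibility. How reads were aligned, which versions and thresholds were used and how replicates were combined is not given in the sources used here. The deposited lists give for each peak a score from the authors, on a scale that is not stated, which was used only to describe ties. Peaks were ordered by the number in their name. Larvae were fixed in 2% formaldehyde, per the labels' protocols.

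The largest peak end in any of the 3 lists served as each chromosome's length, 13778562 bp for chromosome III. Peaks overlapped when they shared at least 1 bp, and positions are those of midpoints. Shares have exact Clopper-Pearson and densities exact Poisson 95% intervals, for counting error only. The 5 tests were adjusted together by the Benjamini-Hochberg method. For values without 1 replicate, the first 6494 peaks of the other replicate's list stood in for the combined list. Named were the 20 lowest peak numbers, the 10 longest gaps, the 5 runs with most peaks, and peaks lacking support. The zone between 25% and 80% of the length, peaks with unequal ranks, identical pairs and early partners were singled out after their values had been seen. The members, lists and tests were chosen with earlier results of these data known. The test, the overlap step and the run step were tested on simulated lists. Computations used scipy 1.17.1, numpy 2.4.6 and pandas 2.3.3 under Python 3.11.15, and figures were drawn with matplotlib 3.10.9.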

Additional observations from a re-analysis of the deposited data

How the results depend on the processing

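Of 33 alternatives to the 5 tested results, 25 kept the direction and the side of the threshold. The centre share against the other autosomes was 62.1% with the middle 50% as centre and 42.4% in the upper 50% of the list, where the call ended. It was between 41.4% and 43.8% without 1 replicate, and it kept its call with any 1 of the other 4 autosomes left out. The share in the upper 50% of the list lost its call with the upper 25% (28.6%) and ranged from 54.3% to 56.3% without 1 replicate. The left share passed the threshold with parts of 25% at either end (40.7%) and ranged from 44.9% to 47.1% without 1 replicate. The centre share of higher-ranked peaks was 42.2% to 42.4% without 1 replicate, and without replicate 1 it was below that of lower-ranked peaks. Support within the first 6494 peaks of each replicate was 81.8%, above the other autosomes' 79.9%. In the upper 50% of the list, density was 46.2 peaks per Mb, the median spacing 12.7 kb, the longest gap 203.0 kb and the share in runs 4.71%. That list holds fewer peaks by construction. The share in runs was 3.197% with a limit of 1 kb, 40.9% with 5 kb and 14.3% after merging. Without 1 replicate, density was 81.3 to 84.3 peaks per Mb, median spacing 5.91 to 6.12 kb, the longest gap 133.7 to 133.8 kb and the share in runs 17.3% to 20.4%. Pairs missing from the combined list numbered 117 with a reciprocal overlap of 50%, which then applies to both steps, and 2 within the first 3247 peaks of each replicate. The causes of the other changes were not tested. Merging for ranks and leaving out autosomes were alternatives chosen after seeing the data. Support and missing pairs need both replicates. No paired analysis was possible because no list of the inputs, whose replicate numbers match those of the ChIP samples, is used here. With unknown depth, a peak seen in 1 replicate is no sign of a difference in binding.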
